A study of Homo sapiens with 6 samples.

Results

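The LINC genes are long noncoding RNA genes that carry a number in place of a functional name. They were taken as every row of the deposited table whose gene name is LINC followed by digits, which gave 192 of 16000 genes. RNA came from LNCaP, an established human prostate cancer line that responds to androgen, stained with ALDEFLUOR, a fluorescent aldehyde dehydrogenase substrate. The 10% brightest cells (ALDH high, 3 samples) and the 10% dimmest (ALDH low, 3 samples) were sorted by flow cytometry. Both groups were cultured in RPMI-1640 with 10% fetal bovine serum, and the labels name no treatment. All 6 libraries come from this line, and whether samples of a group were sorted or cultured separately is not stated in the labels, so a p-value here covers the spread between these samples and no more.

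Long intergenic noncoding RNAs are transcribed by RNA polymerase II, and most are spliced and polyadenylated, so selection of poly(A) RNA captures them. Many are expressed at low level and in few tissues, and some act on neighbouring genes, on chromatin or as decoys for RNA-binding proteins. Others start beside a protein-coding gene on the opposite strand and share its promoter, or carry short reading frames that were later found to be translated. In the prostate, several noncoding RNAs are known to follow the androgen receptor.

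By GENCODE release 29 (GRCh38), 146 of the 192 members were annotated as lincRNA, 19 as antisense and 15 as processed transcripts. A further 8 were transcribed pseudogenes, 6 unprocessed and 2 unitary, and 2 came from bidirectional promoters. The other 2, LINC00854 and LINC00672, were annotated as protein-coding. They lay on 23 chromosomes, with 27 on chromosome 1 and 15 on chromosome 17. A member had a median of 2344 exon bases and of 4 exons in its most divided transcript, against 5097 bases and 10 exons for protein-coding genes of the table. The exon GC content was 50.4% in the median, against 49.6% for protein-coding genes. The table lists genes above a minimum mean, the lowest being 9.65 normalized reads, and GENCODE gives 1878 genes such a name, so the members are the better expressed LINC genes. Today's symbol differed from that of the table in 36 members. Among them LINC01578 is CHASERR, LINC01297 is PSLNR, LINC02001 is SNHG30, LINC00346 is PRECSIT and LINC02170 is ARLNC1.

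Promoter windows from RefSeq (GRCh38.p14, 250 bases before to 50 after the start) could be matched to 140 members. Their median GC content was 62.7%, and 52.1% of the windows had a GC content over 50% with a ratio of observed to expected CpG over 0.6. Among 10001 protein-coding genes of the table, 80.1% of windows met both limits, and among all 27305 RefSeq windows 46.8%. A pair of members with a wide range over libraries and the 2 members with the highest mean are shown, because 2 of them (LINC01634 and LINC00641) are poor in CpG and LINC00963 is rich in it, with LINC00665 between them. The capitals mark matches on either strand to TATAAA (the core promoter box bound by TBP), AGAACA (core of the androgen receptor element), TGCTGAC (core of the MAF element), CACGTG (E-box) and GGGCGG (GC box), and adjoining GC boxes overlap.
LINC01634: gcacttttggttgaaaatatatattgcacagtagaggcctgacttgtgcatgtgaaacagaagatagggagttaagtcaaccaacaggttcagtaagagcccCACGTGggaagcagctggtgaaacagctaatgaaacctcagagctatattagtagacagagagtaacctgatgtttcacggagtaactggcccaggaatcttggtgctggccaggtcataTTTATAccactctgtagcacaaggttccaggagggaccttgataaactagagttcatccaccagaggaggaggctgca
LINC00641: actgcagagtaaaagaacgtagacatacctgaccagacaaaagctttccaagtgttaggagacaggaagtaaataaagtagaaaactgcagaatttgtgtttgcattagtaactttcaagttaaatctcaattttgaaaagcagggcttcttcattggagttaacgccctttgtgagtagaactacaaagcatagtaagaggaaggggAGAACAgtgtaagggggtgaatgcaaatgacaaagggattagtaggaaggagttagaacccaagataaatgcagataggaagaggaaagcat
LINC00963: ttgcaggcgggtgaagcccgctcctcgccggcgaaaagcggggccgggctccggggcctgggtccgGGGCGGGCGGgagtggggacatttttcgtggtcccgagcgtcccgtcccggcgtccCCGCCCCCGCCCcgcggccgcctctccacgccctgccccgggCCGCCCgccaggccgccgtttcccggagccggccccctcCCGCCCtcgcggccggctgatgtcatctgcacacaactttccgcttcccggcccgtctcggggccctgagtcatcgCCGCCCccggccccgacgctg
LINC00665: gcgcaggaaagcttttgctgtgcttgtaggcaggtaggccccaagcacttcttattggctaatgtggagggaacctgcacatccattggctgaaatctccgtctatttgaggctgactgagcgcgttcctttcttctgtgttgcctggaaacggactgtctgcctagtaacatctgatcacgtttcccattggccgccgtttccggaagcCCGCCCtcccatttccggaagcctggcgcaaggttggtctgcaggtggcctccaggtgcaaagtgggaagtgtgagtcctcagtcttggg
These windows lie at chr22:18029135-18029434 (plus strand), chr14:21206851-21207150 (minus), chr9:129488410-129488709 (plus) and chr19:36331669-36331968 (minus). That of LINC00963 belongs to a start 5209 bases from the outermost GENCODE start of the gene, and the other 3 begin at the GENCODE start. The LINC01634 window had 46.3% GC and 2 CpG. It holds TTTATA, which reads TATAAA on the other strand, 28 bases before the start, and an E-box 148 bases before it. The LINC00641 window had 39.0% GC and 2 CpG, with AGAACA 42 bases before the start. LINC00963 had 78.0% GC and 43 CpG, and LINC00665 55.3% and 12. TATAAA occurred in 9.29% of the members' windows, 5.44% of those of the table's protein-coding genes and 12.0% of all windows. In the same order, AGAACA occurred in 12.9%, 8.78% and 14.9%, TGCTGAC in 5.71%, 3.02% and 4.20%, CACGTG in 12.1%, 10.2% and 7.43%, and GGGCGG in 55.0%, 70.4% and 44.6%. A match describes letters only.

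Recovered reads per library ran from 23817310 to 30617873, spike-ins included. All 10 markers listed for prostate luminal cells were in the table, with a summed level of 201191 to 213911 normalized reads in ALDH high and 194493 to 229665 in ALDH low. Of 5 leukocyte markers only CD68 was present, at 16.4 to 32.0 in ALDH high and 19.9 to 27.9 in ALDH low. The table held 2 of 5 fibroblast markers, COL1A1 and PDGFRB, whose sum was 1539 to 1846 in ALDH high and 881 to 1519 in ALDH low, without overlap. The part of these in the results on LINC genes was not tested. It held 3 of 4 neuroendocrine markers (summed 1250 to 2961 and 1179 to 2305), 1 of 4 endothelial (VWF, 189 to 417 and 235 to 386) and 1 of 3 basal (KRT14, 70.2 to 215 and 95.7 to 286), with overlap in each. Libraries did not group by label: over the members whose mean reached 20, the closest pairs were ALDH high 1 with ALDH high 3 (median absolute log2 difference 0.20), ALDH high 1 with ALDH low 2 (0.23) and ALDH high 3 with ALDH low 2 (0.24). ALDH low 2 therefore stood nearer to ALDH high 1 and 3 than to ALDH low 1 (0.43) and ALDH low 3 (0.44). Counts of members called or without overlap, and some single members, are also given without the samples numbered 2. By median distance ALDH high 2 had no such clear place. It lay 0.33 from ALDH high 1, 0.34 from ALDH low 2 and 0.35 from ALDH low 1. From ALDH low 3 it lay 0.39 and from ALDH high 3 0.40. By members that differed over 2-fold it was nearest to ALDH low 1, with 4 of 143. There were 15 against ALDH high 1, 16 against ALDH high 3, 19 against ALDH low 2 and 16 against ALDH low 3. The files cannot settle whether ALDH high 2 and ALDH low 2 carry the right group label, so each difference of ALDH high minus ALDH low below holds for the libraries as labelled.

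**Figure D1:**
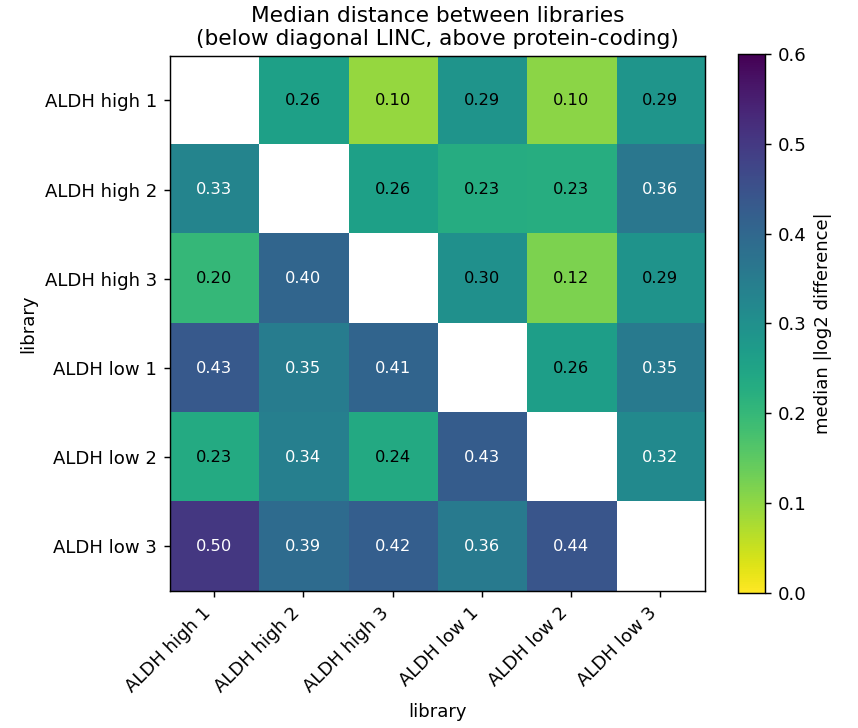
Median absolute log2 difference between each pair of libraries, below the diagonal over the 143 LINC genes whose mean reached 20 normalized reads and above it over protein-coding genes of at least that mean and at most the highest LINC mean. Among the LINC genes the smallest distances, 0.20 to 0.24, join ALDH high 1, ALDH high 3 and ALDH low 2, and the largest, 0.50, separates ALDH high 1 from ALDH low 3.

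As a class the LINC RNAs took a small and steady part of the RNA. Together they held 0.109%, 0.107% and 0.108% of gene reads across ALDH high, against 0.113%, 0.108% and 0.108% across ALDH low. Throughout, the 3 values of a group follow the order of its samples 1, 2 and 3. The total thus hardly moved between libraries while individual members did. In bulk samples such as these, fewer cells that express a gene and less RNA per cell cannot be told apart.

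Levels spanned more than 2 orders of magnitude. The members' means over the 6 libraries ran from 9.75 to 3622 normalized reads, with a median of 54.3 and quartiles of 19.9 and 116. Only 12 members reached 500 and 2 reached 1000, while 49 stayed under 20. Per kilobase of exon the median was 27.0 normalized reads, against 139 for protein-coding genes and 28.0 for the 1979 other long noncoding genes.

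LINC00963, which has been linked to the shift of prostate cancer cells to androgen independence, was the most abundant by mean (chromosome 9, 129483451 to 129513686). It had 3558, 3593 and 3899 normalized reads across ALDH high, against 3091, 3533 and 4058 across ALDH low, so the ALDH low libraries enclosed those of ALDH high. LINC00665, for which a translated micropeptide has been described (chromosome 19, 36313067 to 36331718), had 3028, 3139 and 3094 over the ALDH high libraries, against 3064, 3183 and 3490 over those of ALDH low. These 2 genes gave 20.7% to 24.0% of all LINC reads in a library. The groups overlapped for both.

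The next 8 by mean lay between 634 and 918 normalized reads. They were LINC01278, LINC00667, LINC00839, LINC02210, LINC01578, LINC00467, LINC00847 and LINC01184, and for all but LINC00467 and LINC00667 the groups overlapped. LINC01578, known as CHASERR, lies upstream of the chromatin remodeller gene CHD2 and restrains it. It had 749, 497 and 629 across ALDH high, against 920, 749 and 828 across ALDH low (chromosome 15, 92882707 to 92899701), with ALDH high 1 just above ALDH low 2. Its log2 difference of ALDH high minus ALDH low was −0.43 (95% interval −0.84 to −0.01, limma adjusted p = 0.984), and −0.27 without ALDH high 2.

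**Figure D2:**
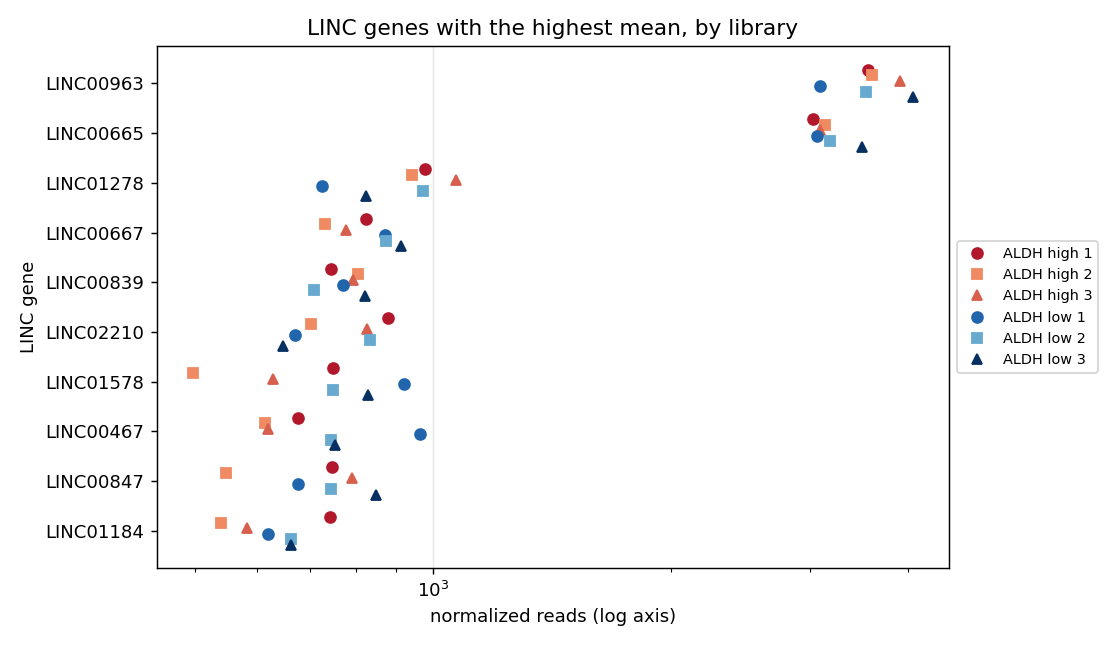
Normalized reads (log axis) of the 10 LINC genes with the highest mean, each point a library. LINC00963 and LINC00665 lie between 3028 and 4058 in all libraries and the other 8 at 1070 or less.

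Corrected for exon length, the order changed. LINC00665 led with 440 normalized reads per kilobase, followed by LINC02001 (399), LINC01770 (345), LINC00839 (331), LINC00847 (296), LINC01029 (290), LINC00963 (275), LINC01137 (254), LINC02321 (230) and LINC01976 (216). LINC02001 is SNHG30, a host transcript of small nucleolar RNA, and it had 537, 477 and 532 normalized reads over the ALDH high libraries, against 687, 527 and 837 over those of ALDH low. ALDH low 2 thus fell among the ALDH high libraries. LINC00511, described as a carcinoma-promoting RNA, had a mean of 85.1 normalized reads but 3.08 per kilobase, since its annotated exons add up to 27605 bases.

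Of 45 LINC genes listed for published work in carcinoma, 14 were members under the listed name. The match was by name only, so a listed gene that stands in the table under another name was not counted. LINC01133 had 331, 336 and 288 normalized reads across ALDH high, against 399, 314 and 594 across ALDH low, with ALDH low 3 apart from the rest. LINC01138 had 47.1, 78.5 and 48.0 over the ALDH high libraries, against 53.7, 33.2 and 76.1 over those of ALDH low. LINC00662 stayed between 444 and 574, LINC01128 between 353 and 472 and LINC00680 between 73.3 and 100.4. LINC00511, LINC00472, LINC00624 and LINC00869 had means of 85.1, 18.8, 14.4 and 80.8, and the groups overlapped in each. LINC02170, picked here after its values were seen, is ARLNC1, a noncoding RNA induced by the androgen receptor that stabilises the receptor's mRNA (chromosome 16, 80828735 to 80892595). It was low, at 24.1, 13.7 and 17.1 across ALDH high, against 20.8, 16.6 and 19.3 across ALDH low, a difference of −0.07 (95% interval −0.97 to 0.82).

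The spread over libraries depended on the level, among the members as among coding genes. The SD of log2(normalized reads + 1) over the 6 libraries had a median of 0.40 over the members, and 0.40 within groups. At means of 500 and over it was 0.17 for 12 members and 0.21 for 7829 protein-coding genes. At 100 to 500 it was 0.30 and 0.27, at 50 to 100 it was 0.41 and 0.40, at 20 to 50 it was 0.45 and 0.50, and under 20 it was 0.53 and 0.65. Counting noise alone would give a median SD of 0.19 at the members' depth. In 99 members the SD was over 2 times that of counting noise, and in 12 it was below it. At each level the share over 2 times was lower than among protein-coding genes. It ran from 24.5% against 38.4% at means under 20 to 83.3% against 95.8% at 500 and over. At low means much of a difference between libraries thus falls within the sampling of reads.

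**Figure D3:**
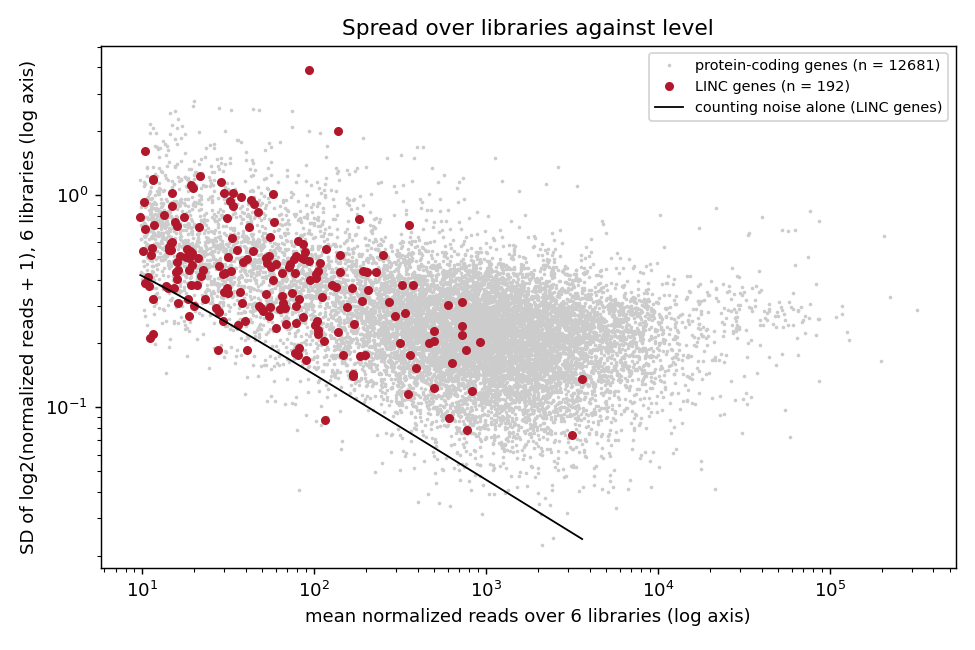
SD of log2(normalized reads + 1) over the 6 libraries against the mean (both axes log), for 192 LINC genes and 12681 protein-coding genes, with the SD that counting noise alone would give. LINC01634 and LINC01297 lie highest among the LINC genes at 3.89 and 1.99.

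The steadiest members with a mean of at least 100 were LINC00665, LINC00839, LINC01560, LINC01029 and LINC00957. LINC00839 had 745, 804 and 792 normalized reads over the ALDH high libraries, against 771, 708 and 821 over those of ALDH low, an SD of 0.08. LINC01560, which starts 625 bases from the zinc finger gene ZNF41 on the opposite strand, ran from 105 to 122 (SD 0.09). LINC01029 (SD 0.09) ran from 554 to 647 and lies 693398 bases from the nearest protein-coding gene, GALR1.

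LINC01634 varied most of all members (chromosome 22, 18029385 to 18037968, plus strand). It had 181, 1.82 and 151 normalized reads across ALDH high, against 0, 225 and 0 across ALDH low. In reads these are 173, 2 and 132 against 0, 230 and 0. Both groups held libraries with the RNA and libraries nearly without it: the 3 libraries with it were at least 47.0-fold higher than the floor of 3 reads per library that bounds the others. The difference between the groups was 2.81 with an interval of −1.75 to 7.37 (limma adjusted p = 0.984). It ran from 1.51 without ALDH low 1 or ALDH low 3 to 5.42 without ALDH low 2, and was 0.57 with DESeq2 and 0.56 with edgeR.

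Most genes around LINC01634 were arranged otherwise. MICAL3, an actin-regulating monooxygenase gene 4826 bases away, had 701, 1414 and 696 over the ALDH high libraries, against 977, 745 and 361 over those of ALDH low, so ALDH high 2 was the highest and ALDH low 3 the lowest. PEX26, a peroxisomal import gene, ran from 1974 to 2195, and BCL2L13, an apoptosis regulator gene, from 2376 to 2495. BID, which encodes a BCL-2 family protein that promotes apoptosis and was picked here after its values were seen, had its 3 highest libraries in ALDH high 1 (273), ALDH high 3 (201) and ALDH low 2 (218), as LINC01634 did, with 109, 165 and 146 in the others. Exons of LINC01634 overlap no other annotated gene, and 1.80% of its 50-base words recur in other transcripts.

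LINC01297, today PSLNR, ran the other way (chromosome 22, 15746630 to 15778297). It had 20.9, 201 and 25.1 normalized reads across ALDH high, against 248, 14.6 and 313 across ALDH low. ALDH high 2, ALDH low 1 and ALDH low 3 were high, and these are the libraries in which LINC01634 was nearly absent. Of its 50-base words 34.7% recur in transcripts of other genes, so unique reads cover only part of it. The adjoining DUXAP8, a pseudogene-derived noncoding RNA, had 738, 1023 and 668 over the ALDH high libraries, against 1358, 772 and 663 over those of ALDH low. AP000526.1, an unnamed sense intronic transcript there, picked after its values were seen, had 32.5, 42.9 and 18.3 against 66.7, 27.3 and 63.2, with the same 3 highest libraries as LINC01297.

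LINC00641, picked after its values were seen, had 246, 166 and 247 across ALDH high, against 83.2, 263 and 84.6 across ALDH low (chromosome 14, 21200079 to 21206900). ALDH low 1 and 3 were low and ALDH low 2 was the highest of all. Leaving out ALDH high 2 and ALDH low 2, which was decided on after the data had been seen, limma called 107 of 16000 genes and 3 of 192 members, namely LINC01634 (log2 difference 7.38, adjusted p = 0.00864), LINC01297 (−3.54, 0.0107) and LINC00641 (1.54, 0.0434). Both libraries were left out because of how their values lay, so the adjusted p-values of this fit are no evidence of a difference between the ALDH groups. In all 3 genes the left-out ALDH low 2 lay on the side of ALDH high 1 and 3. For LINC01634 and LINC01297 ALDH high 2 lay on the side of ALDH low 1 and 3, and for LINC00641 it lay between the sides. Mitochondrial transcripts took 4.90%, 2.89% and 4.90% of gene reads across ALDH high, against 2.01%, 4.55% and 2.996% across ALDH low, in the arrangement of LINC01634, and their part in it was not tested.

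**Figure D4:**
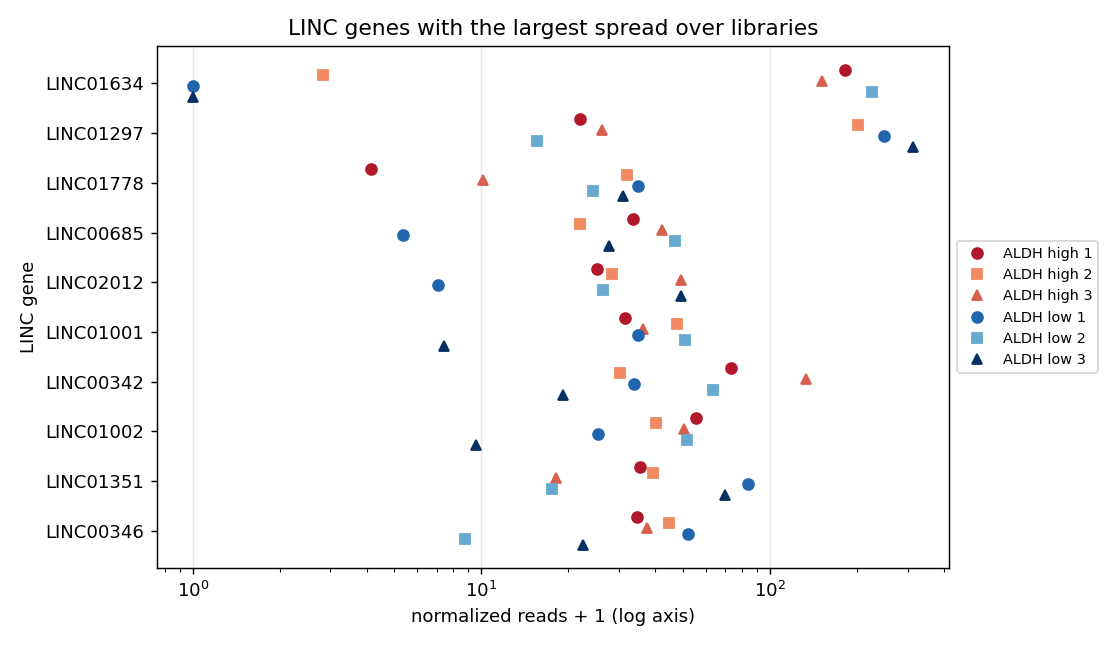
Normalized reads + 1 (log axis) of the 10 LINC genes with the largest SD over libraries among those with a mean of at least 20, each point a library. In LINC01634 and LINC01297 the 6 libraries fall into the same sets of 3 on opposite sides, and in neither do those sets match the ALDH groups.

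The other 8 members with the largest SD had lower means. LINC01778 had 3.14, 31.0 and 9.14 over the ALDH high libraries, against 33.8, 23.4 and 30.0 over those of ALDH low, with ALDH high 1 and 3 low. LINC00685 and LINC02012 were lowest in ALDH low 1, at 4.33 and 6.06, with 21.0 to 45.9 and 24.1 to 48.2 elsewhere. LINC01001 and LINC01002 were lowest in ALDH low 3, at 6.43 and 8.57, and 86.5% and 69.3% of their 50-base words recur in other transcripts, so their reads cannot be assigned with certainty. LINC00342 ran from 18.2 (ALDH low 3) to 133 (ALDH high 3), and 28.5% of its 50-base words recur in other transcripts. LINC01351, a divergent transcript of BRINP3, was highest in ALDH low 1 and 3, at 83.2 and 68.6, and ran from 16.6 to 38.3 elsewhere. LINC00346, or PRECSIT, a p53-regulated RNA, was lowest in ALDH low 2 at 7.81 and highest in ALDH low 1 at 51.1.

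Between ALDH high and ALDH low no member was called. Limma on log2(normalized reads + 1), adjusted by Benjamini-Hochberg over all 16000 genes at 0.05, called 0 of 192 members, where it called 0% of all genes. At an unadjusted p under 0.05 it counted 6 members (3.13%), where 2.11% of all genes passed, and on the recovered reads edgeR counted 8 (2.23% of all genes), DESeq2 8 (2.22%) and limma-voom 7 (2.11%), with 0 called by each. Without the trend of variance on mean, limma counted 12 members (2.75% of all genes). The authors' deposited table gives 7 members an unadjusted p under 0.05 (2.22% of all genes) and 0 an adjusted one. The limma count at an unadjusted p under 0.05 was 12 without ALDH high 2 (4.56% of all genes) and 27 without ALDH low 2 (10.6%). It was 1 without ALDH high 1 (0.819%), 2 without ALDH high 3 (0.5%), 3 without ALDH low 1 (1.11%) and 2 without ALDH low 3 (1.76%).

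The differences of the members lay on either side of 0 in nearly equal number. The log2 difference lay above 0 in 95 and below in 97, with a median of −0.01 (quartiles −0.24 and 0.22), against a median of 0.02 over all genes (−0.14 and 0.18). For 91 members the 95% interval stayed inside 2-fold in both directions, which is 47.4% of them, against 84.2% of protein-coding genes, so larger changes are not bounded for the others.

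The groups did not overlap in 15 members, 7.81%, where 6.99% of all genes did not overlap, so the share is near the background. In 8 of them ALDH high was higher (background 3.67%) and in 7 lower (3.32%). Without ALDH high 2 the count was 54 (22.1% of all genes) and without ALDH low 2 it was 68 (28.3%). It was 22 without ALDH high 1 (12.6%), 26 without ALDH high 3 (10.8%), 28 without ALDH low 1 (13.1%) and 28 without ALDH low 3 (15.2%), where fewer libraries make overlap rarer.

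**Figure D5:**
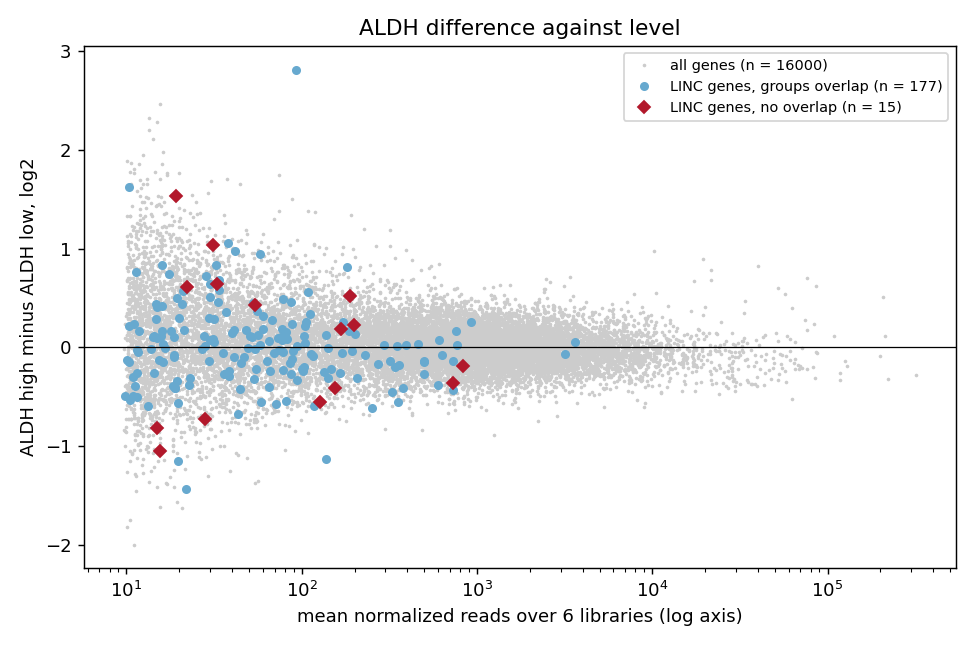
Log2 difference of ALDH high minus ALDH low against the mean (log axis) for 16000 genes, with the LINC genes whose groups overlap (177) and do not (15) in colour. The LINC genes scatter on both sides of 0 with 95 above and 97 below, and the farthest, LINC01634 at 2.81, has overlapping groups.

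Among members whose groups did not overlap, the 6 with the largest positive differences were LINC01529, LINC00893, LINC02288, LINC01465, LINC00174 and LINC01786. The limma adjusted p of each was 0.984. LINC01529, a transcribed pseudogene now named TEX14BP (chromosome 19, 35785697 to 35797902), had 36.7, 21.9 and 24.0 normalized reads across ALDH high, against 4.33, 21.5 and 6.43 across ALDH low, a difference of 1.53 (95% interval 0.27 to 2.80), or 0.92 with a pseudocount of 10. ALDH low 2 came just below ALDH high 2, and the other ALDH low libraries were far lower. The difference ran from 1.11 without ALDH low 1 to 2.14 without ALDH low 2. LINC01529 overlaps the coding gene ARHGAP33, which had 889, 515 and 828 across ALDH high, against 321, 741 and 424 across ALDH low. Whether reads of one gene entered the count of the other was not tested.

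LINC00174 had 233, 203 and 231 across ALDH high, against 132, 171 and 164 across ALDH low (chromosome 7, 66376044 to 66493566), a difference of 0.52 (0.06 to 0.98). It was the best covered of the 6, and 13.3% of its exon bases are shared with genes on the same strand. LINC00893, divergent to EOLA1, had 38.8, 48.4 and 35.4 against 29.5, 24.4 and 9.64, a difference of 1.04 (0.05 to 2.03) that was 0.58 without ALDH low 3, and 29.2% of its 50-base words recur in LINC00894. LINC00893 also overlaps the coding gene AC244197.3, whose difference was 0.76. LINC02288, LINC01465 and LINC01786 differed by 0.64, 0.61 and 0.43, each with an interval that included 0, and without ALDH high 3 the difference of LINC01465 was 0.41.

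The 6 with the largest negative differences were LINC02062, LINC00992, LINC01670, LINC02447, LINC00526 and LINC00467, all with a limma adjusted p of 0.984. LINC00467, from which a mitochondrial micropeptide has been reported (chromosome 1, 211382803 to 211435333), was the most abundant of them. It had 677, 614 and 618 over the ALDH high libraries, against 965, 744 and 752 over those of ALDH low, a difference of −0.36 (−0.72 to 0.01), with ALDH low 1 well above the other libraries, and −0.23 without it. LINC02447 had 83.8, 97.6 and 127 against 152, 132 and 167 (chromosome 4, 7094571 to 7103385), a difference of −0.56 (−1.10 to −0.01).

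LINC00526 had 119, 130 and 149 against 168, 152 and 215, a difference of −0.41 (−0.92 to 0.09), or −0.27 without ALDH low 3. It lies head to head with LINC00667, and 41.2% of its exon bases are shared with a gene on the opposite strand, so reads of the neighbours cannot be told apart if strand was not kept. LINC00667 had 824, 731 and 777 against 872, 874 and 912, also without overlap and lower in ALDH high. LINC02062, LINC00992 and LINC01670 had means of 15.4, 14.9 and 28.0 and differences of −1.05, −0.81 and −0.72, each with an interval that included 0. That of LINC02062 was −0.67 without ALDH low 3, and that of LINC00992 −0.50 without ALDH high 1. Of the words of LINC01670, 96.0% recur in other transcripts.

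Position linked many members to a coding gene. The median gap to the nearest protein-coding gene was 7502 bases, 35 members overlapped such a gene and 32 lay over 100000 bases from any. In 26 members the start faced that of a protein-coding gene on the opposite strand within 2000 bases, at a median of 173 bases. Of these pairs 25 had both genes in the table, and the coding gene had the higher level per kilobase in 22, with a median ratio of 5.67 over the LINC gene and a range of 0.53 to 127. The exceptions were LINC01184 beside SLC12A2, LINC01534 beside ZNF567 and LINC01560 beside ZNF41, with ratios of 0.89, 0.91 and 0.53.

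LINC01137, divergent to the RNase gene ZC3H12A at 141 bases, was picked from these pairs after its values were seen (chromosome 1, 37454879 to 37474411). It had 218, 484 and 175 normalized reads across ALDH high, against 412, 234 and 604 across ALDH low. ZC3H12A, which degrades inflammatory mRNAs, had 596, 1188 and 637 over the ALDH high libraries, against 1016, 612 and 1297 over those of ALDH low. In both genes ALDH high 2, ALDH low 1 and ALDH low 3 were the 3 highest libraries. LINC02062 and its partner CHD1 did not match: CHD1 had 628, 756 and 622 across ALDH high, against 859, 683 and 386 across ALDH low, lowest in ALDH low 3, where LINC02062 was highest at 34.3.

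Sharing of over 10% of exon bases or of 50-base words with other genes touched a minority of members. In 29 members over 10% of the exon bases were shared with a gene on the opposite strand, and in 9 with a gene on the same strand. In 26 members over 10% of 50-base words recurred in transcripts of genes elsewhere, and in 8 over 50%. No such word was found for 92 members. The name LINC01238 appeared on 2 rows with different identifiers, and both were counted as members.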

How the data were processed

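The authors deposited 1 table of normalized signal per gene and library: by its values, read counts divided by 1 size factor per library. Per the labels' protocols, unique reads in exons were counted after poly(A) selection. The submitters' processing notes name DESeq2, featureCounts (Subread 1.5.2), STAR 2.5.2b, Trimmomatic 0.36 and the build GRCh38. The sources used here do not give the annotation release, and the labels mention strand-aware counting only as a condition. The authors also deposited a log2 fold change, a p-value and an adjusted p-value per gene.

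Values were whole multiples of 1 step per library, and at least 99.99% came out whole within 0.02 of a read. Of 16046 rows, 46 were ERCC spike-ins and were left out of the fits. The main test was limma 3.58.1 in R 4.3.3, with a trend of variance on mean, fitted to log2(normalized reads + 1) of 16000 genes. The added 1 shrinks the differences of low genes, but where libraries lie near 0 they can still exceed those of DESeq2. That of LINC01634 was 2.81 with limma and 0.57 with DESeq2. edgeR 4.0.16, DESeq2 1.42.0 and limma-voom ran on the recovered reads, and the fits were tested on simulated data. Other alternatives were the pseudocount, a filter on the mean, total-count scaling, no trend, a replicate block and each library left out. GENCODE release 29 matched all 192 members by identifier.

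Named members are the 10 with the highest mean, the 10 with the highest level per kilobase of exon, the 10 with the largest SD among means of at least 20, the 5 steadiest among means of at least 100, the 6 largest differences each way among members whose groups do not overlap, and 14 from a list of LINC genes. Others were picked after their values were seen. The members and lists were chosen with earlier results of these data known. No pair of libraries agreed within sampling noise: the smallest mean chi-square per gene was 5.24.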

Additional observations from a re-analysis of the deposited data

Results flagged for a closer look

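Reads of ERCC spike-ins, synthetic control RNAs outside the comparison, made up 0.487% of all reads. They are listed because these reads enter no comparison, and their share is reported as a value only. Their share ran from 0.399% in ALDH high 2 to 0.630% in ALDH high 1. With 3 samples each, no rule for outlying libraries was applied within either group. The samples numbered 2 were singled out by their values.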

How the results depend on the processing

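No member and no gene was called under any of the 15 alternatives that kept at least 5 libraries. The 12 printed differences of members whose groups did not overlap kept their sign wherever they were tested. Since they were chosen for groups without overlap, their sign could change only where libraries were rescaled, so this is no test of them. Under a pseudocount of 10, LINC00992 stood at −0.49, LINC02062 at −0.66 and LINC01529 at 0.92. The difference of LINC02170, −0.07, was 0.021 with both samples numbered 2 left out and ran from −0.28 to 0.11 with 1 library left out. Leaving out ALDH high 2 and ALDH low 2, which was decided on after the data had been seen, limma called 3 members and 107 genes, and 110 members had groups that did not overlap, against 48.2% of all genes. That choice rested on these same values, so those counts are no evidence of a difference between the ALDH groups. The count of members without overlap was 8 among the 101 with a mean of at least 50 (6.38% of all such genes), and 22 to 68 with each library left out in turn (10.8% to 28.3%), against 15 with all libraries. The median SD was 0.31 with only genes of a mean of at least 50 and 0.31 with a pseudocount of 10, against 0.40. The median difference ran from −0.04 with edgeR to 0.04 with total-count scaling. With the replicate number as a block, limma called 0 members, and 2 had an unadjusted p under 0.05 (1.41% of all genes). Same-numbered libraries had deviations from their group means that correlated at −0.46, −0.43 and 0.14 across genes. Only 1 of 6 libraries correlated best with its own number, and ALDH high 2 with ALDH low 1 reached 0.56. The spread that crosses the groups enters these deviations, so they cannot show whether samples of the same number were paired. Depth limits the 49 members with a mean under 20, where counting noise alone gives a median SD of 0.35.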

Other observations

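Long noncoding RNAs outside the LINC names were taken from a list of 54, of which 29 were in the table, and limma called 0 of them (0% of all genes, limma adjusted p of at least 0.984 in each). Their median difference was −0.02, with 13 above 0 and 16 below, and their median level was 53.9 normalized reads per kilobase of exon, against 27.0 for the LINC genes. GAS5, a host of small nucleolar RNAs, had 8322, 8068 and 8483 normalized reads over the ALDH high libraries, against 10372, 7799 and 12688 over those of ALDH low, with ALDH low 2 the lowest of all. SCHLAP1, a prostate cancer noncoding RNA that interferes with the SWI/SNF complex, had 364, 356 and 374 across ALDH high, against 351, 407 and 204 across ALDH low. NEAT1, the scaffold RNA of paraspeckles, had 30580, 12348 and 32286 across ALDH high, against 9200, 23818 and 8679 across ALDH low, so that ALDH high 1, ALDH high 3 and ALDH low 2 were its 3 highest libraries, as for LINC01634. NORAD, a decoy for Pumilio proteins, ran from 5530 (ALDH low 3) to 8202 (ALDH high 2). CRNDE and CYTOR were the 2 whose groups did not overlap, lower in ALDH high, at differences of −0.28 and −0.44, each with an interval that included 0, where 6.99% of all genes did not overlap.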
